A study of Homo sapiens with 18 samples.

Results

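Keratin associated protein (KRTAP) genes encode small proteins of the hair shaft. The family was taken as every protein-coding gene whose symbol is KRTAP followed by a family number, a hyphen and a member number, which gave 94 of 19974 protein-coding genes. All 94 lie in 5 clusters, on chromosomes 11, 17 and 21. The measure was the percentage of each gene body, and of each cluster, that lay inside called domains of H3K9me3 or H3K27me3 in each library.

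The data are chromatin immunoprecipitation and sequencing (ChIP-seq) of U937, an established acute myeloid leukaemia line. The 3 genotypes were sgControl, which carries a control guide, SKO, in which SUV39H1 is knocked out, and DKO, in which SUV39H1 and SUV39H2 both are. Each mark was profiled in 2 libraries of each genotype. SETDB1 was mapped in 2 libraries of wild-type U937, and the 4 input samples of the 18 in the series were not analysed here. All groups are the same line with no further treatment named. The sources used here do not say if the knockout lines are single clones or how the 2 libraries of a genotype were cultured, so their spread may be technical. Domain lists show where a mark was called and hold neither expression nor the amount of the mark, so they cannot check the knockouts.

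H3K9me3 is a histone mark of constitutive heterochromatin. SUV39H1, SUV39H2 and SETDB1 are enzymes that set it, and heterochromatin protein 1 binds it. H3K27me3 is set by Polycomb repressive complex 2 and marks silent developmental genes. KRTAP proteins cross-link the keratin filaments of the hair cortex and cuticle. They are sorted by composition into high sulfur, ultra-high sulfur and high glycine-tyrosine classes, and both sulfur classes are rich in cysteines that form disulfide bonds. Their genes have a single short exon and are expressed late in hair shaft differentiation, and they are not known as genes of myeloid cells.

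The members fell into 5 runs with less than 500 kb between neighbours (hg38 coordinates). On the short arm of chromosome 11, 6 genes from KRTAP5-1 to KRTAP5-6 spanned chr11:1584342-1697755. On the long arm, 5 genes from KRTAP5-7 to KRTAP5-11 spanned chr11:71527267-71582875. The chromosome 17 cluster held 34 genes from KRTAP3-3 to KRTAP17-1 at chr17:40993430-41315710. The large chromosome 21 cluster held 33 genes from KRTAP24-1 to KRTAP19-8 at chr21:30281309-31038476, and the small one held 16 genes of the KRTAP10 and KRTAP12 families, from KRTAP10-1 to KRTAP10-12, at chr21:44538981-44698044. By family, 48 members are ultra-high sulfur, 23 are high sulfur and 22 are high glycine-tyrosine, and KRTAP29-1 was not classed. The 22 high glycine-tyrosine genes all lie in the large chromosome 21 cluster. Gene bodies ran from 208 to 1643 bp, with a median of 828.5 bp against 24170.5 bp over all protein-coding genes. Domain edges lie on an 800 bp grid, so 1113 of 1128 member values (98.7%) were exactly 0% or 100%: a member is in effect marked or unmarked in a library. Many members are near-identical to a neighbour and how multiply matching reads were handled was not given in the sources used here. Values of single members are therefore uncertain, and neighbours inside 1 domain are not independent.

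Promoter sequence was available for 80 of the 94 members in a RefSeq table of GRCh38.p14. The 150 bases before the annotated start are shown for 1 member of 4 clusters, chosen because it changed in a mark, and for KRTAP29-1, which gained H3K9me3. Capitals mark TATAAA, the variant TATATAA where the first is absent, and AACAAGGAA, all on the strand shown. KRTAP5-3 lost H3K27me3, KRTAP4-2 lost both marks, KRTAP13-2 lost H3K9me3 in SKO and carried it in DKO, and KRTAP10-3 gained H3K9me3.
KRTAP5-3 (chr11:1608464-1608613, minus strand): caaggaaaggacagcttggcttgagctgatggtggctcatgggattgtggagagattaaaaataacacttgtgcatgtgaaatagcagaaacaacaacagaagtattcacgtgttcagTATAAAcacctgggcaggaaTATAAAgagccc
KRTAP4-2 (chr17:41178222-41178371, minus strand): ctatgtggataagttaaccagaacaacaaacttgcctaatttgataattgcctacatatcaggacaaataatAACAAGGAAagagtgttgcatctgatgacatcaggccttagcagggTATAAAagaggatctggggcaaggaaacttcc
KRTAP29-1 (chr17:41302852-41303001, minus strand): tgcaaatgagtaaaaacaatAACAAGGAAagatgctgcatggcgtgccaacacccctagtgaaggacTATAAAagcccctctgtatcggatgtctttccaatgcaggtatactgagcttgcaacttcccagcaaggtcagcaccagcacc
KRTAP13-2 (chr21:30372272-30372421, minus strand): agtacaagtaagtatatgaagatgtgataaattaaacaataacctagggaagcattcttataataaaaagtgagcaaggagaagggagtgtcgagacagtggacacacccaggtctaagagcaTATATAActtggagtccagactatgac
KRTAP10-3 (chr21:44558796-44558945, minus strand): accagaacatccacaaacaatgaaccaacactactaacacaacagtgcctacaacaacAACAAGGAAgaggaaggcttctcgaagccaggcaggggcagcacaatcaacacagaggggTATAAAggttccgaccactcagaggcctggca

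These promoters were searched on both strands over the 250 bases before the start. TATAAA, the core of a TATA box, was present in 63 of 80 members (78.8%) and in 9.25% of 15813 promoters of protein-coding genes. In KRTAP4-2 and KRTAP10-3 its first base lay 32 bases before the annotated start. TATATAA, which also holds TATAAA when another A follows, was present in 22 of 80 (27.5%) against 2.12%. AACAAGGAA, a word noticed in these sequences after they were read and overlapping neither of the others, was present in 22 of 80 (27.5%) against 0.493%. It was found in 13 of 33 chromosome 17 promoters and 8 of 15 of the small chromosome 21 cluster, and in 1 of 30 of the large one. The median number of CG dinucleotides was 1.5 in members and 17 over all promoters, and the median GC content was 40.6% against 62.4%. A match is a run of letters and not a shown binding site.

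Before the knockouts, the clusters already differed in the marks they carried. In sgControl cells, 41 of 94 members were more than 50% covered by both marks in both libraries, 4 by H3K9me3 alone, 13 by H3K27me3 alone and 26 by neither. The other 10 differed between the 2 libraries in at least 1 mark. Of the 41 with both marks, 31 lay in the large chromosome 21 cluster and 8 in the small one. KRTAP4-2 and KRTAP4-1 on chromosome 17 were the other two. The 12 high sulfur genes of chromosome 17 carried no H3K27me3 domain in any of the 6 libraries, and 10 of them carried no H3K9me3 domain in any.

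**Figure D1:**
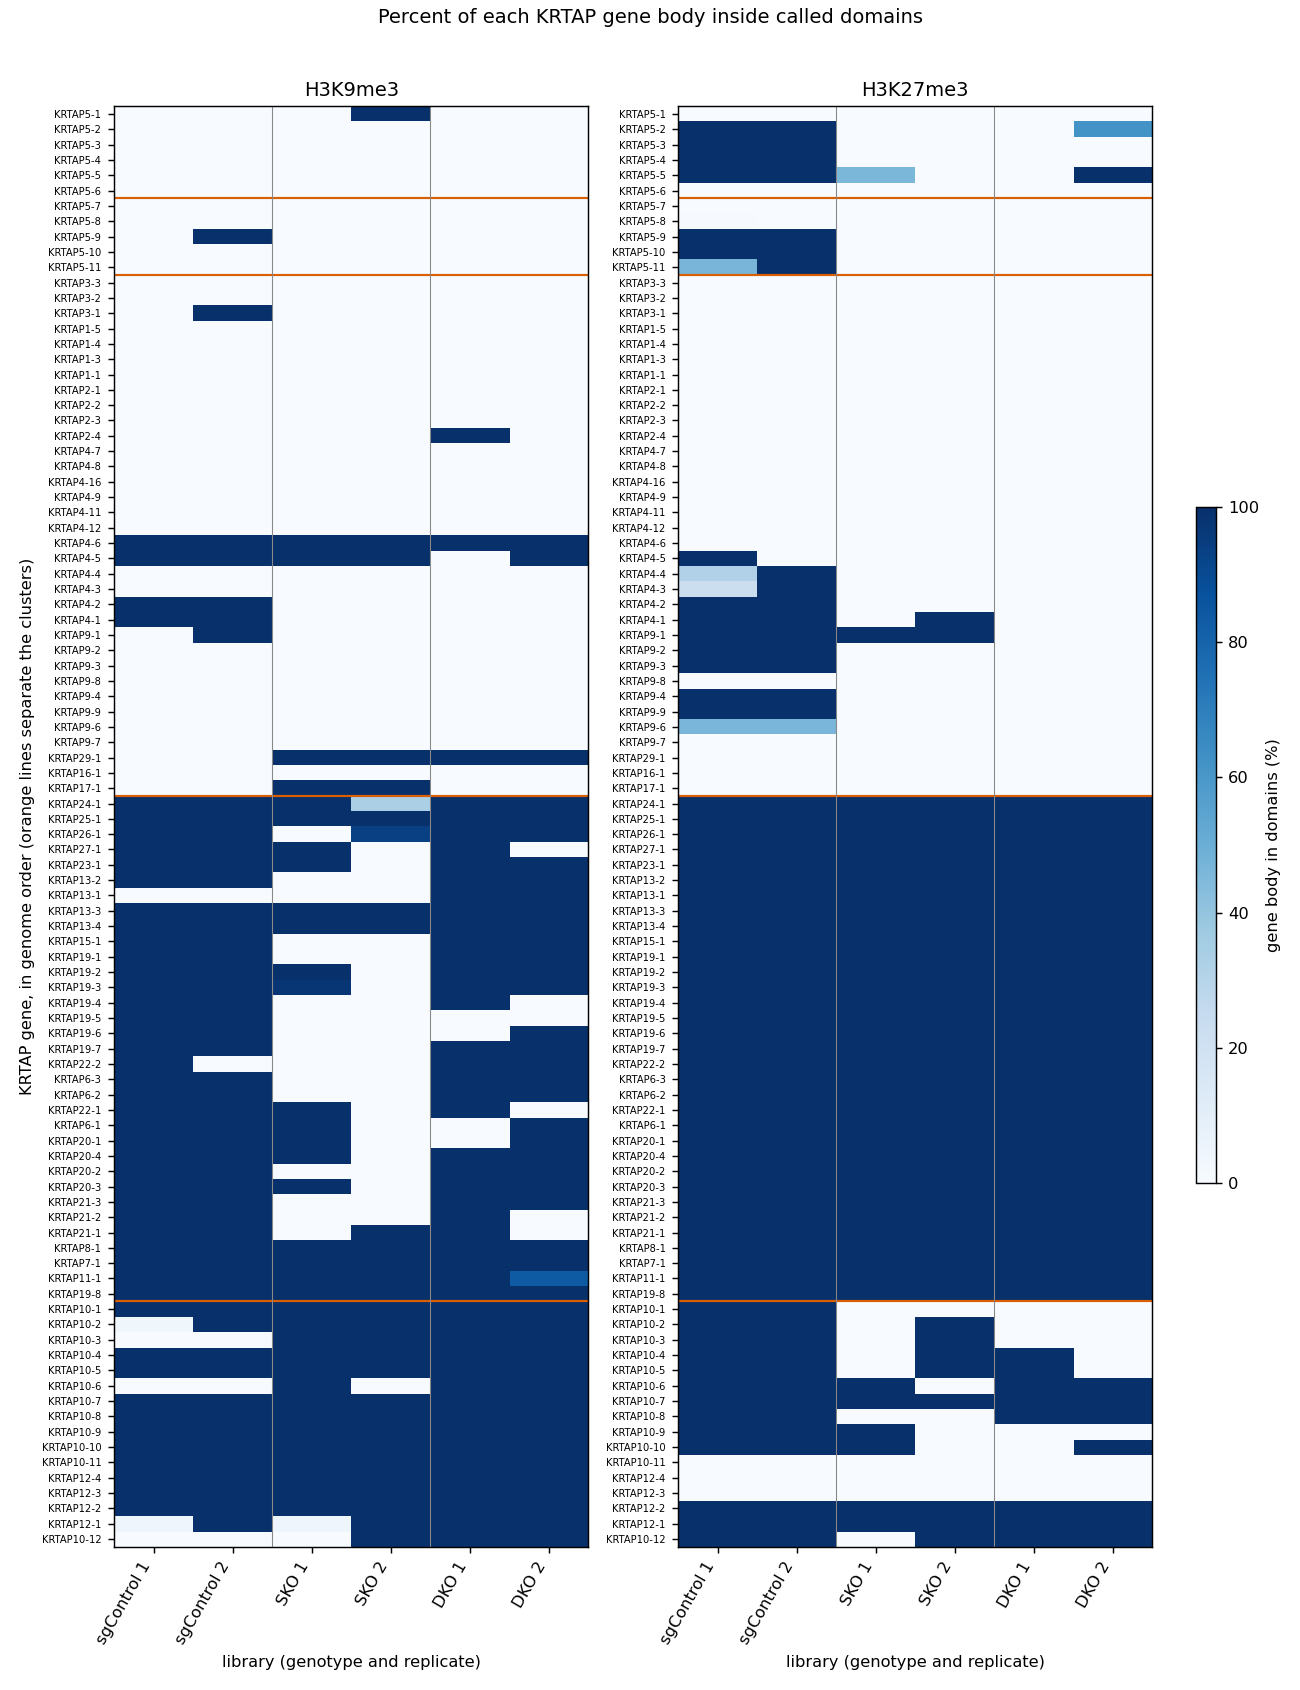
Percent of each of the 94 KRTAP gene bodies inside H3K9me3 (left) and H3K27me3 (right) domains, with 1 column per library and 1 row per gene in genome order; darker blue is a higher percentage and orange lines separate the 5 clusters. Rows of the large chromosome 21 cluster are at 100% in H3K27me3 in every column and turn pale in the H3K9me3 columns of SKO.

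Each gene was compared between 2 genotypes at a time. It counted as lost or gained where the 2 libraries of one genotype all lay below those of the other by a margin of 25 percentage points or more. An exact two-sided test of 2 against 2 libraries cannot go below 0.333, so no p is given, and each count is read against the percentage of all protein-coding genes called the same way. Gene length was not matched: short members are marked or unmarked, while longer genes can be covered in part. The 14 members called lost in H3K9me3 in SKO were the same at margins of 10, 25 and 50 points. The share of all genes was 6.99%, 4.5% and 2.28%. Shares of members and of all genes therefore differ in gene length as well. The SKO and DKO comparisons share the sgControl libraries. For scale, H3K9me3 domains covered 754 to 1044 Mb per library and held 16.5 to 23.6 M (mega) reads, and H3K27me3 domains covered 1058 to 1225 Mb with 47.9 to 70.7 M reads. The sgControl libraries averaged 1028 ± 22.1 Mb of H3K9me3 (SD, n = 2), the SKO libraries 755 ± 1.55 Mb and the DKO libraries 791 ± 5.01 Mb, so less of this mark was called over the whole genome in both knockouts. For H3K27me3 the averages, in the same order, were 1060 ± 3.50, 1205 ± 7.21 and 1212 ± 19.3 Mb (SD, n = 2). Of 10 myeloid marker genes, 10 had no H3K27me3 domain in any library and 8 had no H3K9me3 domain in either sgControl library. The exceptions were ITGAM, the integrin subunit CD11b, and PTPRC, the leukocyte antigen CD45. By the same rule PTPRC gained H3K9me3 in both knockouts, from 11.1 ± 4.29% in sgControl to 52.4 ± 2.67% in SKO and 49.6 ± 2.86% in DKO (SD, n = 2). CD33, a myeloid surface receptor, gained it in DKO: it was at 0% in both sgControl libraries, 0% and 64.0% in SKO, and 58.0% and 69.2% in DKO. Of the 10, 1 was thus called gained in SKO, where 4.11% of all genes were, and 2 in DKO, where 3.84% were. The mean over the 10 was 6.88 ± 0.964% in sgControl, 14.5 ± 5.2% in SKO and 15.9 ± 1.61% in DKO (SD, n = 2).

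In H3K27me3, 16 members lost their domain in SKO and 19 in DKO. None gained one, under the call rule or in limma across all genes. Over all genes 3.15% were lost in SKO and 3.0% in DKO, and 3.37% and 3.82% were gained. A gene can be called lost only where both sgControl libraries are at 25% or more. Of the 62 members that met this, 25.8% were lost in SKO and 30.6% in DKO, against 19.5% and 18.6% of the genes that met it genome-wide. The losses divided by cluster: none of the 33 genes of the large chromosome 21 cluster was lost in either knockout, and 16 (SKO) and 19 (DKO) of the 29 such members elsewhere were. Each of these belonged to the ultra-high sulfur class, which also held all 29 of the members that could be lost outside that cluster, so class and position cannot be told apart. That grouping was made after the values were seen. With H3K27me3 lists of equal covered length, the SKO count was 25. With the upper 50% of domains it was 19, among them 10 of the 16. In limma across the 3790 genes whose H3K27me3 values varied, 12 of the members lost in DKO were lower at adjusted p under 0.05, and 24.2% of those genes were. Those members had been picked by the call rule on the same values, so these shares cannot be compared.

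Both KRTAP5 clusters, which encode ultra-high sulfur proteins of the cuticle, lost most of their H3K27me3. The long-arm cluster was 71.3% and 74.2% inside domains in the sgControl libraries and 0% in all 4 knockout libraries. KRTAP5-9 and KRTAP5-10 went from 100% in both sgControl libraries to 0% in every knockout library. KRTAP5-11, at its end, was at 46.5% and 100% in sgControl and at 0% in the knockouts, and KRTAP5-7, at its start, had no domain in any library. The domain lost over KRTAP5-9 and KRTAP5-10 was a run of 36.8 kb at chr11:71541601-71578400. The short-arm cluster was 56.4% and 43.7% inside domains in sgControl, 8.46% and 3.53% in SKO, and 0% and 16.9% in DKO, so its groups did not overlap either. Genome-wide, 3.28% of 100 kb windows lost H3K27me3 in SKO and 3.42% in DKO, or 8.33% and 8.68% of those that could. The short-arm losses were no longer called with the upper 50% of domains by score (-24.69 points in both knockouts).

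Within the short-arm cluster, KRTAP5-3 and KRTAP5-4 were at 100% in both sgControl libraries and 0% in all knockout libraries. KRTAP5-2 was at 100% and 100% in sgControl, 0% and 0% in SKO, and 0% and 62.1% in DKO. KRTAP5-5 was at 100% and 100%, then 45.8% and 0% in SKO, then 0% and 100% in DKO, and so was called lost in SKO but not in DKO. The DKO libraries disagreed over both genes. The end members KRTAP5-1 and KRTAP5-6 had no H3K27me3 domain in any library. H3K9me3 covered 0% of this cluster in sgControl, 4.94% and 8.87% in SKO, and 4.94% and 8.46% in DKO, below the threshold for a call. On the long arm it covered 41.7% of the cluster in sgControl library 2 and 0% in the other 5 libraries.

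On chromosome 17 the members that lost H3K27me3 were KRTAP4 and KRTAP9 genes, both families ultra-high sulfur, in the middle of the cluster. Of the 12 KRTAP4 genes, 2 were called lost in SKO and 3 in DKO, and 7 had no H3K27me3 domain in any library. Of the 8 KRTAP9 genes, 5 were called lost in SKO and 6 in DKO, and 2 (KRTAP9-7 and KRTAP9-8) had no domain in any. The cluster was 31.8% and 30.8% inside domains in sgControl, 3.97% and 2.73% in SKO, and 0% and 0% in DKO. KRTAP4-2, KRTAP9-2, KRTAP9-3, KRTAP9-4 and KRTAP9-9 each went from 100% in both sgControl libraries to 0% in all 4 knockout libraries. KRTAP4-4 was at 32% and 100% in sgControl and KRTAP9-6 at 46.2% in both, and each was at 0% in the knockouts. KRTAP9-1 kept its domain in both SKO libraries (100%) and was at 0% in both DKO libraries. It was the 1 member called lost in DKO against SKO, where 0.365% of all genes were, and it was not called with lists of equal covered length or with the upper 50% of domains. KRTAP4-1 was at 100% in both sgControl libraries, 0% and 100% in SKO, and 0% in both DKO libraries. The longest stretch lost in DKO ran 32.8 kb over KRTAP4-3, KRTAP4-2, KRTAP4-1 and KRTAP9-1, at chr17:41168001-41200800.

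KRTAP4-3 lay just outside the call, at 22.3% and 100% in sgControl and 0% in every knockout library, while KRTAP4-4 at 32% lay just inside. The first member of the cluster, the high sulfur gene KRTAP3-3, had no domain of either mark in any library, and 23 of the 34 members had no H3K27me3 domain in any.

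The small chromosome 21 cluster lost part of its H3K27me3 in both knockouts, and no member lost H3K9me3. The H3K27me3 losses called by gene, 2 in SKO and 4 in DKO, were all in the KRTAP10 family. Of the 4 KRTAP12 genes, 2 were at 100% in all 6 libraries (KRTAP12-1 and KRTAP12-2) and 2 at 0% (KRTAP12-3 and KRTAP12-4). H3K27me3 covered 81.4% and 87.9% of the cluster in sgControl, 54.3% and 56.1% in SKO, and 49.1% and 53.1% in DKO. Both losses met the rule, the DKO loss not with the upper 50% of domains by score. KRTAP10-1 was at 100% in both sgControl libraries and 0% in all 4 knockout libraries. KRTAP10-2 and KRTAP10-3 were at 100% in both sgControl libraries, at 0% and 100% in SKO and at 0% in both DKO libraries, and the split between the SKO libraries kept them from being called there. KRTAP10-9 was at 100% in sgControl, 100% and 0% in SKO and 0% in both DKO libraries. KRTAP10-8 was at 100% in sgControl, 0% in both SKO libraries and 100% in both DKO libraries. It was the 1 member called gained in DKO against SKO, where 0.726% of all genes were. KRTAP10-7 stayed at 100% in all 6 libraries.

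The replicate libraries agreed less in SKO here. Of the 16 members, 9 differed between the SKO libraries in at least 1 mark, against 2 in sgControl and 3 in DKO. Over the whole cluster the SKO libraries were still within 2 percentage points of each other, since domains of about the same length lay in different places. The large chromosome 21 cluster also split more in SKO: 12 of its 33 members differed, against 1 in sgControl and 8 in DKO. On chromosome 17, 1 of 34 members differed in SKO, against 5 in sgControl and 2 in DKO.

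**Figure D2:**
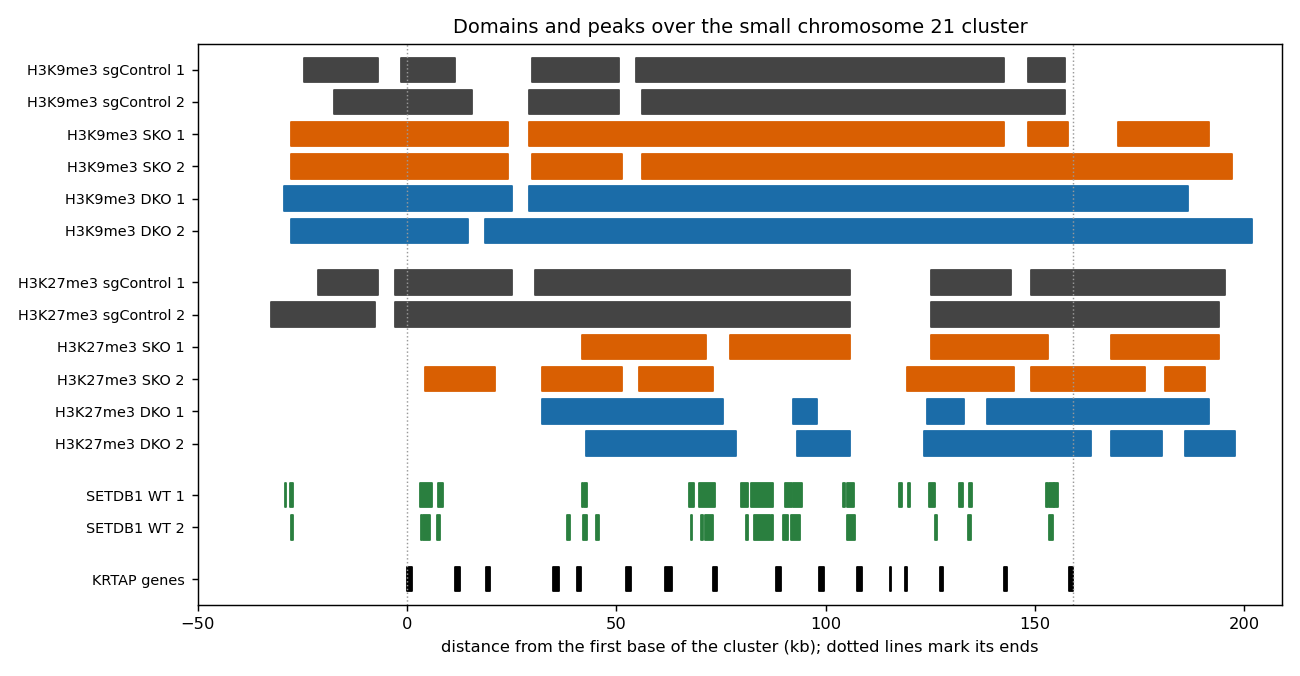
H3K9me3 and H3K27me3 domains per library, SETDB1 peaks of 2 wild-type libraries and the 16 KRTAP genes (black) along the small chromosome 21 cluster, by distance from its first base in kb. H3K9me3 bars lengthen from 81.1% and 86.6% of the cluster in sgControl to 97.5% in both DKO libraries while H3K27me3 bars shorten, and SETDB1 peaks are dense along the cluster.

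H3K9me3 covered 81.1% and 86.6% of this cluster in sgControl, 92.7% and 93.5% in SKO, and 97.5% in both DKO libraries. These groups did not overlap, but the nearest pairs differed by 6.04 (SKO) and 10.8 (DKO) percentage points, under the threshold of 25. In all, 127.42 kb of its 159.06 kb were marked in each of the 6 libraries, in 4 separate stretches of which the longest was 86.4 kb, and 11 of 16 members were at 100% in every one. KRTAP10-3 was at 0% in both sgControl libraries and 100% in all 4 knockout libraries. KRTAP10-6 went from 0% in sgControl to 100% and 0% in SKO and 100% in both DKO libraries, and KRTAP10-12, the last gene, from 0% to 0% and 100% and then 100% in both. Both were called gained in DKO and not in SKO. The flanks of 500 kb on either side also carried more H3K9me3 in the knockouts: the lower flank averaged 10.5 ± 1.13% in sgControl, 24.5 ± 0.792% in SKO and 21.3 ± 1.70% in DKO (SD, n = 2), and the higher flank 5.2 ± 0.566%, 18.8 ± 2.20% and 18.9 ± 1.86% (SD, n = 2).

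TSPEAR, a gene of hair follicle and tooth development, overlaps the whole cluster, and the KRTAP genes lie inside its body. It was 79.9 ± 6.88% inside H3K27me3 domains in sgControl, 45.3 ± 3.97% in SKO and 43.2 ± 0.529% in DKO (SD, n = 2), and was called lost in both. The nearest genes outside, LRRC3 and UBE2G2, had no domain of either mark in any library.

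The large chromosome 21 cluster, with the high glycine-tyrosine genes and 11 high sulfur genes, showed the opposite pairing. It lay entirely inside 1 H3K27me3 domain in each of the 6 libraries, and H3K9me3 was lost over it in SKO and largely present in DKO. H3K9me3 covered 97.9% and 95% of the cluster in sgControl, 42.1% and 47.8% in SKO, and 84.7% and 74.4% in DKO. The SKO libraries lay 47.3 points below the nearest sgControl library, which met the rule for a loss. DKO lay 10.4 points below the nearest sgControl library, which did not, and 26.7 points above the nearest SKO library, which met the rule for a gain. For comparison, 14.6% of all 100 kb windows of the genome lost H3K9me3 in SKO, or 35.2% of those that could, and 2.9% gained it in DKO against SKO, or 3.45% of those that could. With all H3K9me3 lists brought to equal covered length, the mean DKO and SKO libraries differed by 32.24 points and the gain was no longer called.

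**Figure D3:**
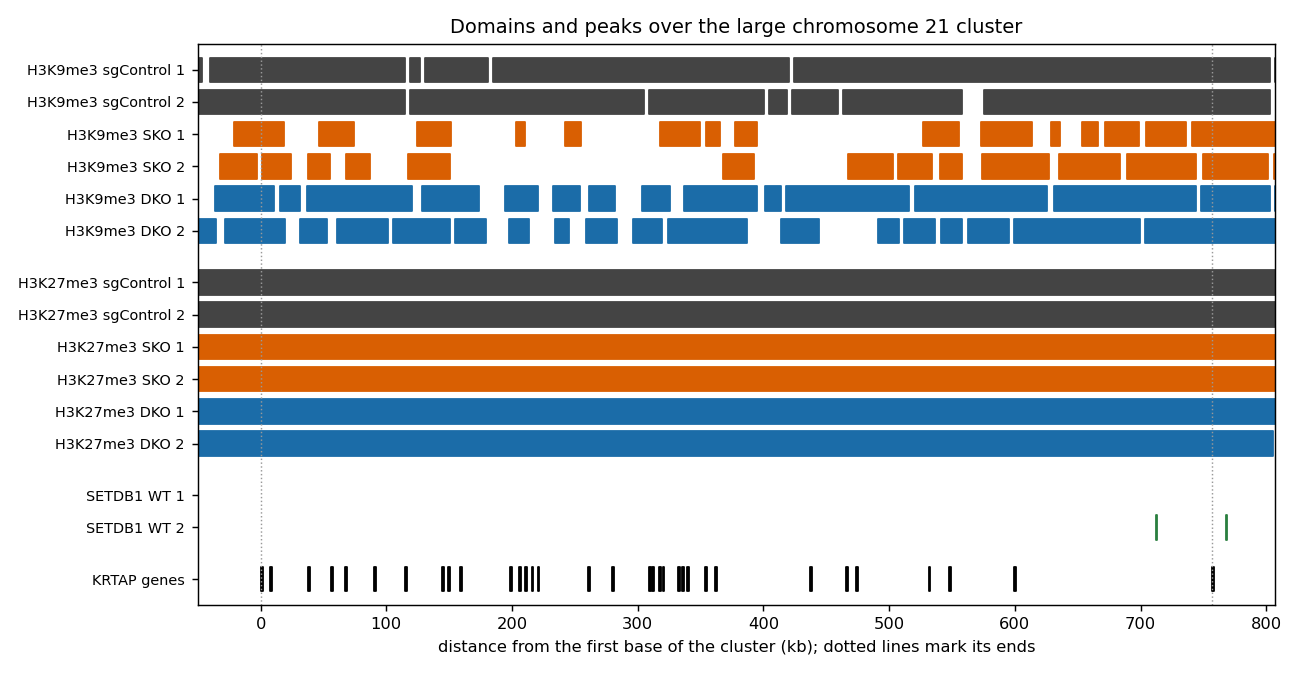
H3K9me3 and H3K27me3 domains per library, SETDB1 peaks of 2 wild-type libraries and the 33 KRTAP genes (black) along the large chromosome 21 cluster, by distance from its first base in kb. H3K9me3 bars are near-continuous in sgControl, broken into short pieces in SKO (42.1% and 47.8% of the cluster) and longer again in DKO (84.7% and 74.4%), while H3K27me3 fills every row.

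Of the 709.97 kb marked with H3K9me3 in both sgControl libraries, 252.0 kb were marked in neither SKO library and 46.4 kb in neither DKO library. A further measure is the 124.0 kb that were marked in both sgControl libraries, neither SKO library and both DKO libraries. The longest stretch lost in SKO was 50.4 kb at chr21:30536001-30586400, over KRTAP19-6 and KRTAP19-7. The number of domains touching the cluster was 5 and 7 in sgControl, 15 and 12 in SKO, and 14 and 17 in DKO, and the longest domain was 378.4 and 227.2 kb, 73.6 and 55.2 kb, and 112.8 and 122.4 kb. DKO domains were thus longer than those in SKO but no fewer. Reads per kb of those domains, as a ratio to all domains of the same library, were 1.01 and 0.996 in sgControl, 0.699 and 0.681 in SKO, and 0.762 and 0.773 in DKO. By this measure the DKO libraries lay nearer to SKO than to sgControl.

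The KRTAP19 genes, high glycine-tyrosine proteins of the hair cortex, illustrate the pattern gene by gene. KRTAP19-1 and KRTAP19-7 were at 100% in both sgControl libraries, 0% in both SKO libraries and 100% in both DKO libraries. The SKO libraries disagreed over KRTAP19-2 (100% and 0%) and KRTAP19-3 (97.6% and 0%). Both genes were at 100% in sgControl and DKO, and neither was called. KRTAP19-4 was at 0% in both SKO libraries and at 100% and 0% in DKO, and KRTAP19-6 at 0% and 100% in DKO. KRTAP19-5 was at 0% in all 4 knockout libraries, and was the 1 gene of this cluster called lost in DKO. KRTAP19-8, at the far end of the cluster, was at 100% in all 6 libraries.

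Among the other high glycine-tyrosine genes, KRTAP6-3, KRTAP6-2, KRTAP20-2 and KRTAP21-3 had 100% in sgControl, 0% in both SKO libraries and 100% in both DKO libraries. KRTAP21-2 was at 100% and 0% in DKO. The high sulfur genes KRTAP13-2 and KRTAP15-1 followed the same course as KRTAP6-3. KRTAP13-1 was at 0% in both sgControl and both SKO libraries and at 100% in both DKO libraries. KRTAP22-2 was at 100% and 0% in sgControl, 0% in both SKO libraries and 100% in both DKO libraries. KRTAP24-1, the first gene, was at 100% in 5 libraries and 33.5% in SKO library 2. The SKO libraries disagreed over many members: 17 of 33 were more than 50% covered by H3K9me3 in library 1 and 9 in library 2.

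Over the family, 14 members were called lost in H3K9me3 in SKO, where 4.5% of all genes were, and 12 of them lay in this cluster. The other two, KRTAP4-2 and KRTAP4-1, lie together on chromosome 17. Of the 46 members that could have been called, 30.4% were lost, against 24.6% of all such genes and 38.8% of the 49 such genes of chromosome 21 outside the family. The members' share therefore lay between those 2 shares. Without SKO library 1 the count was 24. Keeping the 50% of domains with the highest scores gave 27, among them 12 of the 14. In DKO 3 members were lost (6.52% of the 46), where 4.23% of all genes were. Of the genes that could be lost, 23.1% were genome-wide and 20.4% on chromosome 21 outside the family. With the upper 50% of domains it was 10. Without DKO library 1 this count was 8, without DKO library 2 it was 7, and without sgControl library 1 it was 6.

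In DKO against SKO, 10 members were called gained in H3K9me3, all in this cluster, where 1.46% of all genes were. Of the 54 members that could be called, these were 18.5%, against 1.65% of all such genes and 1.2% of the 167 such genes of chromosome 21 outside the family. Since the 10 lie in 1 cluster and share domains, they are not 10 separate events. Without SKO library 1 the count was 17. With the upper 50% of domains by score it was 10 again, but only 3 of them were among the 10 called with all domains. One member, KRTAP17-1, was called lost in the same comparison, where 1.34% of all genes were. Leaving out DKO library 2 or SKO library 1 made that 2, and with the upper 50% of domains it was 0.

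**Figure D4:**
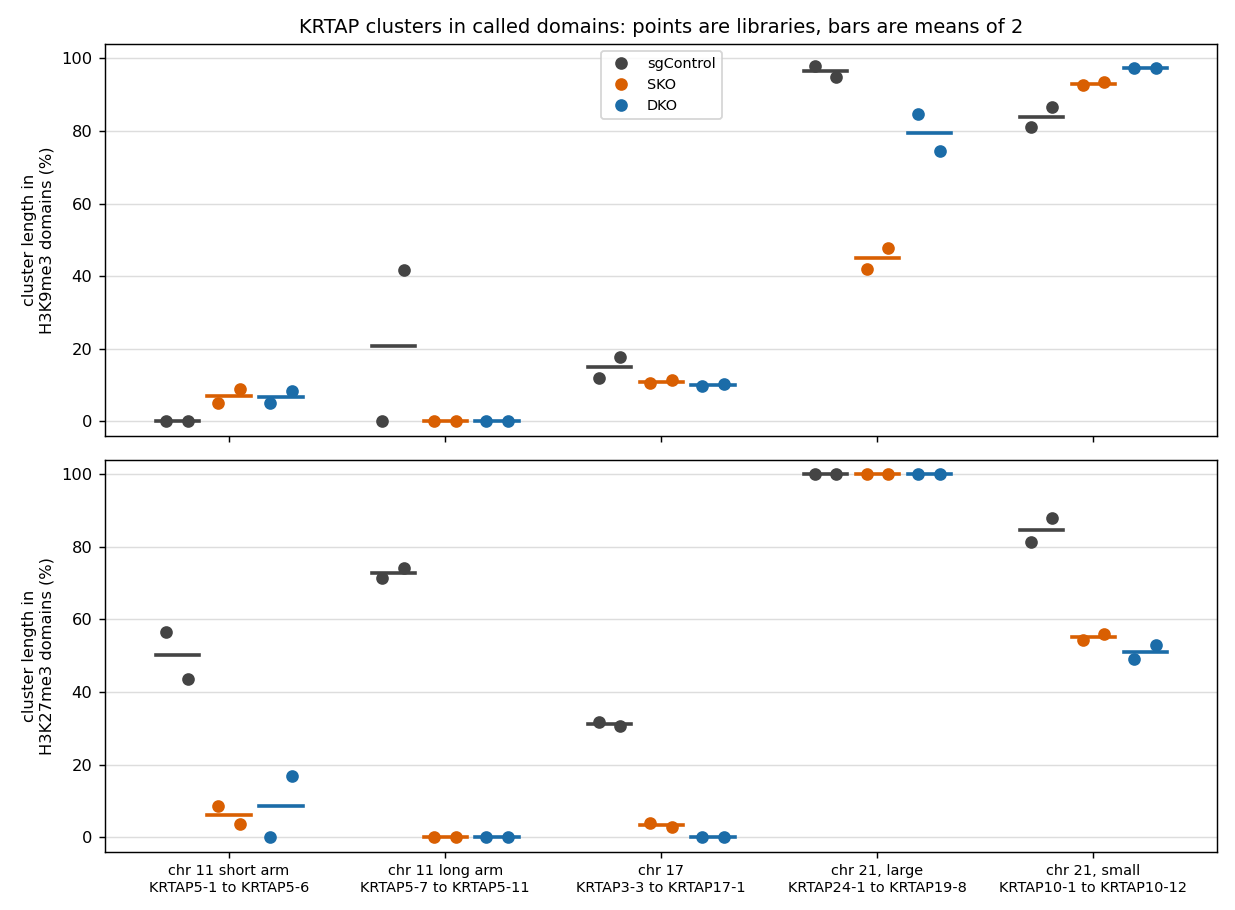
Percent of each cluster inside H3K9me3 (top) and H3K27me3 (bottom) domains; each point is a library and each bar the mean of 2, for sgControl (grey), SKO (orange) and DKO (blue). H3K27me3 falls in 4 clusters and stays at 100% in the large chromosome 21 cluster, where H3K9me3 drops to 42.1% and 47.8% in SKO and stands at 84.7% and 74.4% in DKO.

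The changes in the large cluster ran beyond the KRTAP genes. H3K9me3 on the 500 kb below it averaged 94.5 ± 0.494% in sgControl, 48.5 ± 9.59% in SKO and 77.9 ± 2.04% in DKO (SD, n = 2). On the 500 kb above it the averages were 74.2 ± 0.555%, 54.6 ± 2.15% and 59.7 ± 5.54% (SD, n = 2). Over chromosome 21, the percentage of the called span inside H3K9me3 domains was 46.1% and 44.9% in sgControl, 24.5% and 25.5% in SKO, and 28.7% and 28.1% in DKO. The difference between DKO and SKO was thus wider over the cluster and its lower flank than over the chromosome, which was not tested. CLDN8, a claudin gene of tight junctions and the nearest neighbour below, was at 81.1% and 100% in sgControl, 0% in both SKO libraries, and 0% and 57.1% in DKO.

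The single H3K27me3 domain over the cluster was longer in the knockouts. It spanned 996.8 and 990.4 kb in sgControl, 1382.4 and 1360.0 kb in SKO, and 1344.8 and 1366.4 kb in DKO, with no overlap between sgControl and either knockout. Its reads per kb were 1.2 to 1.24 times those of all H3K27me3 domains of the library in every one of the 6. On the 500 kb above the cluster, H3K27me3 went from 52.7 ± 1.02% in sgControl to 70.3 ± 1.02% in SKO and 73.8 ± 1.13% in DKO (SD, n = 2). TIAM1, which encodes an exchange factor for the GTPase RAC and is the nearest gene above, was at 44.5% and 47.2% in sgControl, 71.7% and 70.2% in SKO, and 76.2% and 75.3% in DKO, and was called gained in DKO.

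Chromosome 17 held the remaining H3K9me3 changes. A run of 14.4 kb at chr17:41172801-41187200, over KRTAP4-2 and KRTAP4-1, was marked in both sgControl libraries and in none of the 4 knockout libraries. KRTAP29-1 was at 0% in both sgControl libraries and at 100% in all 4 knockout libraries, within a stretch gained in SKO at chr17:41297601-41306400. KRTAP17-1, the last gene of the cluster, was at 0% in both sgControl libraries, 100% in both SKO libraries and 0% in both DKO libraries. KRTAP4-6 was at 100% in all 6 libraries. Over the whole cluster no H3K9me3 call was made: it covered 11.9% and 17.9% in sgControl, 10.6% and 11.3% in SKO, and 9.68% and 10.2% in DKO.

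Counting the gains over the family, 3 members gained H3K9me3 in SKO (KRTAP29-1, KRTAP17-1 and KRTAP10-3), where 4.11% of all genes did, and 5 in DKO (KRTAP29-1, KRTAP13-1, KRTAP10-3, KRTAP10-6 and KRTAP10-12), where 3.84% did. These are 3.19% and 5.32% of the 94, near the shares of all genes. Of the 42 members with room for a gain in both sgControl libraries, they are 7.14% and 11.9%. Among such genes the shares were 4.77% (SKO) and 4.45% (DKO) genome-wide, and 8.33% and 8.97% on chromosome 21 outside the family. Without SKO library 1 the first count was 5. In limma across the 7904 genes whose H3K9me3 values varied, 3 of the 5 were higher in DKO at adjusted p under 0.05, and 15.2% of those genes were. The 5 had been picked by the call rule on the same values, so these shares cannot be compared.

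**Figure D5:**
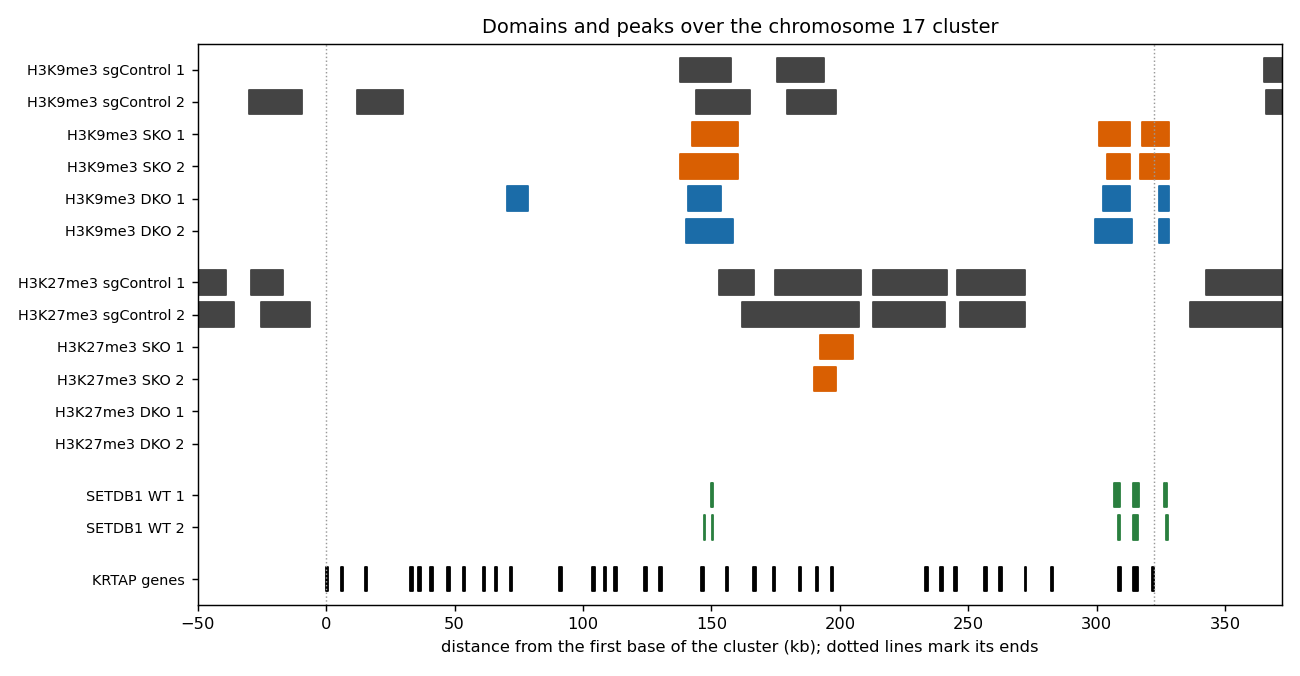
H3K9me3 and H3K27me3 domains per library, SETDB1 peaks of 2 wild-type libraries and the 34 KRTAP genes (black) along the chromosome 17 cluster, by distance from its first base in kb. H3K27me3 bars in the middle of the cluster cover 31.8% and 30.8% of it in sgControl and are absent in DKO, and an H3K9me3 bar near the right end appears in all 4 knockout libraries beside SETDB1 peaks.

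SETDB1 peaks in wild-type cells were densest in the small chromosome 21 cluster. It held 20 and 18 peaks in the 2 libraries, or 125.7 and 113.2 per Mb, against 7.73 and 8.04 per Mb of the genome and 8.66 and 8.94 per Mb of chromosome 21. Its strongest peak spanned chr21:44621060-44626293 in library 1, with a deposited −log10 p of 21.2. The chromosome 17 cluster held 4 and 4 peaks, the large chromosome 21 cluster 0 and 1, the short-arm chromosome 11 cluster 0 and 2, and the long-arm one none. The 2 chromosome 21 clusters thus differed in SETDB1 peaks and in which mark was called lost in SKO. In DKO the small one was again called lost in H3K27me3, and the large one was called lost in neither mark. Both chromosome 11 clusters and the chromosome 17 one, with fewer peaks or none, were also called lost in H3K27me3 in both knockouts. A link between peaks and marks was not tested, and no cluster had a replicate to test it.

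Each of the 20 and 18 peaks in the small cluster touched an H3K9me3 domain in all 6 libraries. On H3K27me3, 18 of the 20 library 1 peaks touched a domain in each sgControl library, 14 and 13 in SKO, and 10 and 12 in DKO. By gene, 7 members had a peak within the body or 2 kb of it in both libraries (7.45% of 94, against 20.6% of all protein-coding genes): KRTAP10-5, KRTAP10-8, KRTAP10-9, KRTAP10-11 and KRTAP12-2 in this cluster, and KRTAP29-1 and KRTAP16-1 on chromosome 17. Member bodies had a median of 828.5 bp against 24170.5 bp over all genes, so the windows searched were unequal and these shares are not alike. The library 1 peaks beside KRTAP29-1 and KRTAP16-1 spanned chr17:41300115-41302573 and chr17:41307577-41309782. The first lay inside the stretch where both SKO and both DKO libraries gained H3K9me3. KRTAP16-1 itself had no domain of either mark in any library. SETDB1 was not mapped in SKO or DKO cells.

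Some of the keratins that KRTAP proteins bind in the hair shaft lost H3K27me3. Of 17 hair keratin genes, 6 were lost in SKO, where 3.15% of all genes were, and 8 in DKO, where 3.0% were. Of all genes that could be lost, 19.5% were in SKO and 18.6% in DKO, a share not worked out for the keratins. Most of the keratins called lost lie close together on chromosome 17, so they are not separate events. In DKO against SKO 4 were lost, where 0.365% of all genes were, and none gained in any comparison. A further 5 had no H3K27me3 domain in either sgControl library. KRT84 was not called in either knockout, at 58.7% and 23.8% in sgControl, 84.8% and 41.2% in SKO, and 41.2% and 32.5% in DKO. Mean coverage of the 17 was 52.3 ± 0.365% in sgControl, 22 ± 1.72% in SKO and 6.89 ± 0.826% in DKO (SD, n = 2). KRT33A, the nearest gene above the chromosome 17 cluster, was at 100% in both sgControl libraries and 0% in all 4 knockout libraries. KRT32 was at 100% in both sgControl libraries, 32.8% and 39% in SKO and 0% in both DKO libraries. KRT38 was at 100% in sgControl and SKO alike, then 36.9% and 0% in DKO. KRT40, below the cluster, was at 0% and 100% in sgControl and 0% in the knockouts, so it was not called. In H3K9me3, KRT33B and KRT34 were lost in both knockouts. Many of these genes lie beside the chromosome 17 KRTAP cluster, where H3K27me3 on the 500 kb above the cluster went from 38.1 ± 0.453% to 10.6 ± 2.26% and 2.08% (SD, n = 2, with both DKO libraries equal).

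The epidermal differentiation genes, another set of small genes in 1 cluster, on chromosome 1, mostly kept both marks. Of 38, H3K27me3 was lost at 2 in SKO, where 3.15% of all genes were lost, and at 3 in DKO, where 3.0% were. Mean coverage was 91.7 ± 1.57% in sgControl, 85.1 ± 0.0654% in SKO and 83 ± 0.814% in DKO (SD, n = 2). TCHHL1 and LCE3A were at 100% in both sgControl libraries and 0% in all 4 knockout libraries. LCE5A was at 100% in sgControl and SKO and at 28.9% and 0% in DKO. In H3K9me3 their mean was 89.9 ± 0.209%, 89.3 ± 2.50% and 89.5 ± 1.51% (SD, n = 2). LCE5A was at 100% in both sgControl libraries, 0% in both SKO libraries and 100% in both DKO libraries. It was the 1 gene of this list lost in SKO (4.5% of all genes) and the 1 gained in DKO against SKO (1.46%). LCE3A was the 1 gained in SKO (4.11%), and RPTN the 1 lost in DKO against SKO (1.34%).

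Among 14 hair follicle regulators and partners, 1 lost and 1 gained each mark in each knockout. Between 3.0% and 4.5% of all genes were called in each of these ways. GATA3, a transcription factor of the inner root sheath, was at 70.5% and 62.5% in H3K27me3 in sgControl, 0% in both SKO libraries, and 3.6% and 11.6% in DKO. LEF1, the Wnt effector of the hair matrix, was at 0% in both sgControl libraries and between 95% and 96.3% in the knockouts. In H3K9me3, SOX21 went from 100% to 0% in all 4 knockout libraries. TGM3, a transglutaminase of the hair shaft, went from 0% in both sgControl libraries to 87.6% and 71.0% in SKO and 100% and 87.6% in DKO.

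Around the chromosome 11 clusters, DUSP8, a phosphatase gene below the short-arm cluster, lost H3K27me3 as the KRTAP5 genes did: it was at 76.9% and 51.1% in sgControl and 0% in the knockouts. IFITM10, above it, had no H3K9me3 in sgControl and 76.9% and 59.3% in SKO, with 41.8% and 0% in DKO. The neighbours of the long-arm cluster, NADSYN1 and the defensin gene DEFB108B, had no domain of either mark in any library. H3K27me3 on the 500 kb on either side of each cluster was lower in the knockouts. Below the long-arm cluster it averaged 66.0 ± 0.566% in sgControl, 41.1 ± 0.453% in SKO and 43.4 ± 1.81% in DKO (SD, n = 2). Above that cluster it averaged 28.3 ± 2.38%, 3.2 ± 0.679% and 3.68 ± 0.226%. For the short-arm cluster the lower flank averaged 14.4 ± 3.17%, 0% and 1.12 ± 1.58%, and the higher one 19.1 ± 0.566%, 8.0 ± 1.36% and 9.6%.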

How the data were processed

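H3K9me3, H3K27me3 and SETDB1 ChIP-seq libraries of U937 were used, grouped by the sample titles. Drosophila chromatin was added as a spike-in, per the labels' protocols; no spike-in factor was used here. The submitters' processing notes list Trim Galore 0.6.10, FastQC 0.12.1 and deepTools 3.5.6, with hg38 and dm6 as builds; an aligner was not given in the sources used here. The domain lists, made per library with epic2 per the file names, hold 2 values per domain as deposited: the count of that library's reads, with no depth normalisation, and a score. SETDB1 peaks carry the authors' score and −log10 p-value, deposited per library. Scores were used to rank domains or peaks within a list, and counts only as reads per kb relative to the library.

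Genes on chromosomes 1 to 22 and X were placed by RefSeq (GRCh38.p14). The percentage of each gene body, cluster and 100 kb window inside domains was computed per library, with the call rule given above on all 19974 protein-coding genes. limma across all genes (adjusted p under 0.05, Benjamini-Hochberg), stricter domain sets, other windows and leaving out libraries were the alternatives. A simulation on the sgControl libraries raised 200 of 19974 genes in each mark, all little covered, by more than the margin. Recovery of 200 of 200 by the call rule was thus fixed in advance, and no losses were seeded. The 0 false calls for H3K9me3 and 1 for H3K27me3 came from sgControl libraries set against noise around their own mean. Shares among genes or windows that could be called were added after seeing the data. Promoters were used without the 50 bases after the start. The members and the gene lists were chosen with earlier results of these data known, and sulfur classes follow the family number. Named were all called members, some uncalled ones beside them, cluster ends and members with a SETDB1 peak in both libraries. Nearest neighbours and up to 6 genes of a list were named as well. Protein sequences were not used here. Python 3.11.15, pandas 2.3.3, numpy 2.4.6, R 4.3.3 and limma 3.58.1 were used.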

Additional observations from a re-analysis of the deposited data

How the results depend on the processing

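Of 132 repeats of the member counts under alternatives, 105 stayed within 1.5 times. Of 240 repeats of the cluster differences, 232 kept the call or the lack of one, 6 lost a call, 2 gained one and none was reversed. Direction was not checked where no call was made. Splitting clusters at 200 kb gave the same clusters, and leaving out a library cannot remove a call, so those repeats could not weaken one. Differences without a call had none to lose, so the 232 of 240 do not measure how firm the calls are. With the upper 50% of domains by score, members lost in H3K9me3 were 27 in SKO, among them 12 of the 14, and 10 in DKO, among them 1 of the 3; the 10 gained in DKO against SKO held 3 of the 10, and the 19 that lost H3K27me3 in SKO held 10 of the 16; members lost in DKO against SKO were 0 in either mark, and 2 gained H3K27me3. The chromosome 11 short-arm cluster then differed by -24.69 points in H3K27me3 in both knockouts and was no longer called, nor was the small chromosome 21 cluster in DKO (-36.10). With equal covered length, 5 members gained H3K9me3 and 25 lost H3K27me3 in SKO, and DKO against SKO had 0 lost and 2 gained in H3K27me3; the large chromosome 21 cluster differed by 32.24 points between DKO and SKO in H3K9me3, with the nearest pair under the threshold. With 2 kb on either side of the gene, 2 lost H3K27me3 in DKO against SKO. With 50 kb on either side, the short-arm cluster differed by -31.30 (SKO) and -29.99 (DKO) points and was not called. The cause of these shifts was not tested.

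Leaving out each library in turn can add calls but not remove them under this rule. Members lost in H3K9me3 ranged from 15 to 24 in SKO and 3 to 8 in DKO, gained from 3 to 5 in SKO and, in DKO against SKO, lost from 1 to 2 and gained from 11 to 17. In H3K27me3, DKO against SKO ranged from 1 to 4 lost (4 without SKO library 1) and 1 to 3 gained (3 without DKO library 1). The H3K9me3 difference of the long-arm cluster ranged from -41.72 to 0 points in each knockout and was called without sgControl library 1.

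In limma across all genes, with and without a replicate block alike, 3 members gained H3K9me3 and 12 lost H3K27me3 in DKO, out of the 5 and 19 called. Replicate deviations correlated between genotypes at -0.015 to 0.050 over all genes. That cannot show whether libraries of the same number were handled together, which the sources used here do not say. The block changed 1 other count, H3K27me3 losses in SKO, from 13 to 12. The ratio of SETDB1 peaks per Mb to the genome was 15.2 in the small chromosome 21 cluster, 20.2 for peaks shared by both libraries and 18.3 for the upper 50% by score; on chromosome 17 it was 1.57, 2.09 and 2.36. With 2 libraries per genotype and no counts outside domains, a domain that is missing cannot be told from one below the calling threshold.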
